A study of Mus musculus with 6 samples.

Results

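The membrane mucins of the luminal surface, Muc1, Muc4, Muc13, Muc15 and Muc20, were followed in the pregnant mouse uterus with and without Arid1a, the gene of the ARID1A subunit of SWI/SNF complexes, which move nucleosomes. All probe sets that the platform annotation assigned to one of these genes alone were taken, which gave 9 probe sets of 5 genes among 45037 probe sets and 18193 named genes. Whole uteri of intact females at 3.5 dpc were profiled on Affymetrix arrays, with 1 array for each sample. The 3 Arid1a d/d samples came from females of the genotype Pgr cre/+ Arid1a f/f, in which Cre made from the Pgr locus deletes floxed Arid1a in PGR-expressing cells, while uterine cells without PGR keep the gene. The 3 Arid1a f/f samples came from females with the floxed alleles and no Cre. The floxed alleles were therefore shared by both groups, whereas the Cre allele at the Pgr locus was not, and no arrays of mice with Cre alone were part of the comparison. All females had been mated with C57BL/6 males, and the morning of the vaginal plug was 0.5 dpc. The labels do not give the age of these mice or state that every array had its own mouse, and the p-values then measure only how these samples varied, which may be technical.

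Membrane mucins are long, rod-like glycoproteins anchored in the apical membrane of epithelial cells. Their extracellular repeats carry dense O-linked glycans, which lubricate and shield the surface, and their short cytoplasmic tails bind signaling proteins. In the uterus they form part of the glycocalyx that a blastocyst meets at the luminal epithelium. In mice, estrogen raises uterine Muc1, progesterone opposes it, and Muc1 normally declines before the embryo attaches. MUC4 and MUC13 carry domains resembling epidermal growth factor, human MUC20 binds the receptor MET, and MUC15 was first described in the bovine milk fat globule membrane.

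Muc1 and Muc20 each had 1 probe set above the median of the table on every array, and Muc4 had 1 above it on all Arid1a d/d arrays only. The start regions of these 3 genes are shown to place the sequences beside the values that follow. Each is the stretch of 250 bases before the annotated start, 5′ to 3′ on the strand of the gene, from RefSeq on GRCm38.p6. Muc1 lies on the plus strand with its stretch at chr3:89228806-89229055, Muc4 on the plus strand at chr16:32735636-32735885 and Muc20 on the minus strand at chr16:32797436-32797685. Capitals mark every match, on either strand, to one of 6 motifs. They are TATAAA, the core promoter element, GGGCGG, which SP1 binds, GGTCA, a half-site of the estrogen response element, AGAACA, a half-site of the progesterone response element, TTCNNNGAA, a STAT site, and CACCC, which Kruppel-like factors bind.
Muc1: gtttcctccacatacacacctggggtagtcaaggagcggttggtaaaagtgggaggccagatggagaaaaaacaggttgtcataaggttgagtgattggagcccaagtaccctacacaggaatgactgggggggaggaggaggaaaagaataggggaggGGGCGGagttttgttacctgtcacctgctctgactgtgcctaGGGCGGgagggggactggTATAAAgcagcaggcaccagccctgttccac
Muc4: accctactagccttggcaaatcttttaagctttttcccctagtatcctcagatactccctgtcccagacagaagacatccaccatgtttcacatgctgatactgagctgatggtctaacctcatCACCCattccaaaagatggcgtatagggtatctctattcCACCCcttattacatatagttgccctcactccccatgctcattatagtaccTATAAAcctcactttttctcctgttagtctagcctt
Muc20: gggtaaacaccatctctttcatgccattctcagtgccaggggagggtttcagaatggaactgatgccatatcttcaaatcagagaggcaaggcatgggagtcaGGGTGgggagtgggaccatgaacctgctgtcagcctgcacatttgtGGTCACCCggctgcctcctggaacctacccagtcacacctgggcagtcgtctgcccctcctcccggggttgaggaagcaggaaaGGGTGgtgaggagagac
The start regions differed from each other in these letters. TATAAA stood 31 bases before the Muc1 start and 36 bases before the Muc4 start, and 12.4% of 32851 RefSeq windows of the same length held it. Muc1 had GGGCGG at 91 and 49 bases before the start (32.7% of all windows). Muc4 had CACCC at 126 and 87 bases, and Muc20 at 147, 98 and 17 bases before the start (52.0% of all windows). GGTCA was matched 101 bases before the start of Muc20, where it overlaps a CACCC, and 35.2% of all windows held it. AGAACA (16.1% of all windows) and TTCNNNGAA (7.02%) were matched in none of the 3 stretches. The dim Muc13 had 2 annotated starts, and GGTCA was matched 2 times before one and 3 times before the other, with 1 TTCNNNGAA beside the 2 and none of the other 4 motifs before either. No start region of Muc15 was analysed here. These matches describe letters only and were set beside no binding data.

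In the Arid1a d/d uteri, set against the Arid1a f/f uteri, Muc1, Muc4 and Muc20 each had 1 probe set on which every Arid1a d/d array lay above every Arid1a f/f array, with log2 fold changes of 1.42, 2.53 and 1.00. None of them passed the test at an adjusted p under 0.05 (limma, Benjamini-Hochberg over all probe sets). Muc13 and Muc15 stayed dim in both genotypes. Across the table, 2.42% of probe sets passed as higher and 2.35% as lower. Of the 9 mucin probe sets, 0 passed in either direction, 3 were higher and 0 lower at an unadjusted p under 0.05 (9.27% and 9.23% of all probe sets), and the methods' t-test called 0 of them after adjustment. The genotypes did not overlap on 4 of the 9, all of them higher in Arid1a d/d mice, against 11.0% of all probe sets that did not overlap and were higher. On the scale of log2 fold change, 0.768% of all probe sets reached the value of Muc20 or more. Because the samples are whole uteri, more cells of a type and more RNA per cell cannot be told apart in any of these values.

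**Figure D1:**
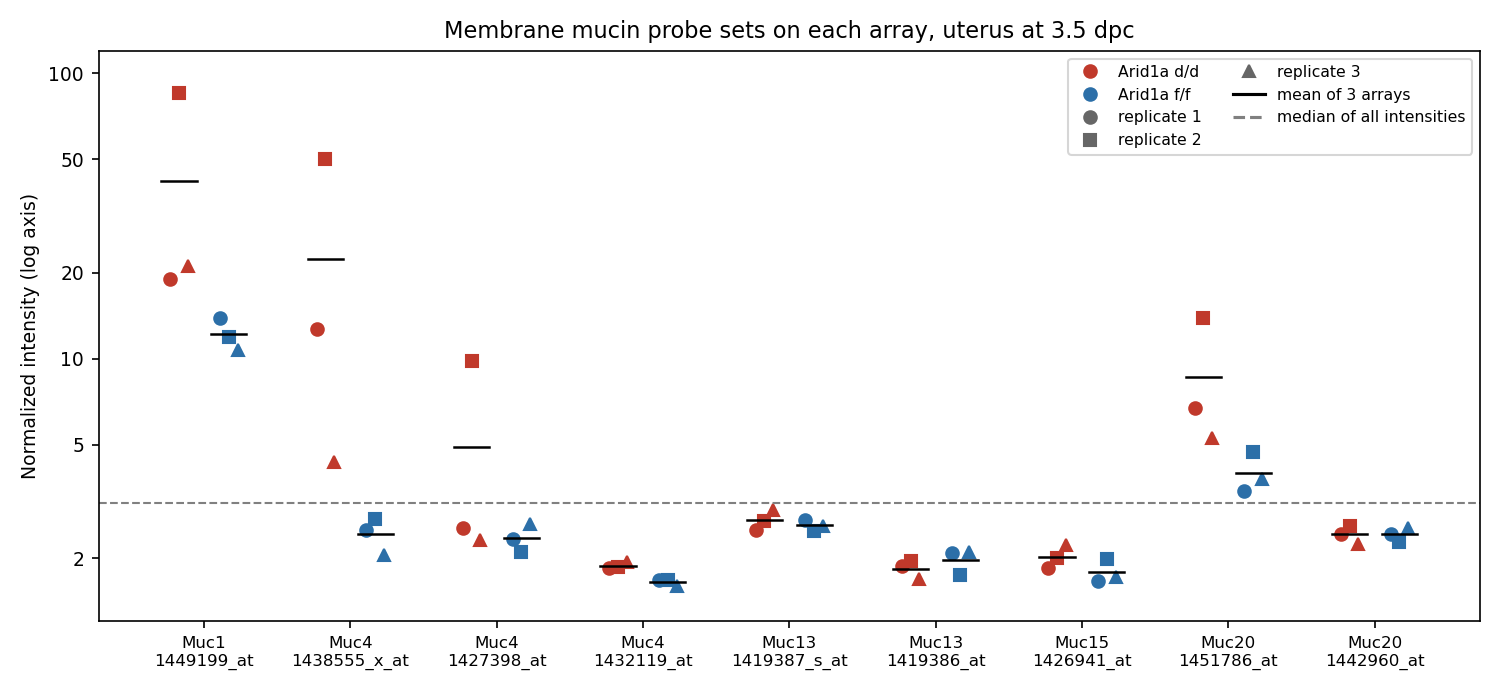
Normalized intensity (vertical, log axis) of the 9 membrane mucin probe sets (horizontal) on 3 Arid1a d/d arrays (red, left) and 3 Arid1a f/f arrays (blue, right). Marker shapes give the replicate number, short black lines the means, and the dashed line the median of all intensities, 3.12; Muc1 and 1 probe set of Muc20 separate the genotypes above this line, 1 probe set of Muc4 separates them across it, and Arid1a d/d replicate 2 is the highest point on each.

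Muc1, the best known mucin of the uterine surface, had intensities of 19.0, 85.3 and 21.1 on the Arid1a d/d arrays, against 13.9, 11.9 and 10.7 on the Arid1a f/f arrays (probe set 1449199_at). The genotypes did not overlap, and replicate 2 was 4.25 times the mean of the other Arid1a d/d arrays. The mean was 41.8 ± 37.7 in Arid1a d/d mice and 12.2 ± 1.60 in Arid1a f/f mice (SD, n = 3 each). The log2 fold change was 1.42 (standard error 0.49, 95% interval 0.32 to 2.53, adjusted p = 0.152, limma), which is 2.68-fold. Without Arid1a d/d replicate 2 the log2 fold change was 0.73 and the adjusted p = 0.0426 (limma), so that the smaller difference passed the test. Muc1 lies on chromosome 3.

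Muc4 had a log2 fold change above that of Muc1 on its brightest probe set alone. Over the mean of its probe sets it was 1.15, and 0.72 when probe sets of the suffixes s_at and x_at were left out, both below the 1.42 of Muc1. The brightest, 1438555_x_at, had intensities of 12.7, 49.9 and 4.33 on the Arid1a d/d arrays and of 2.51, 2.75 and 2.05 on the Arid1a f/f arrays. All Arid1a d/d arrays lay above all Arid1a f/f arrays, and their own values differed widely from each other. The mean was 22.3 ± 24.3 in Arid1a d/d mice and 2.44 ± 0.356 in Arid1a f/f mice (SD, n = 3 each), and the log2 fold change was 2.53 (standard error 0.70, 95% interval 0.94 to 4.13, adjusted p = 0.0827, limma). All Arid1a f/f values were below the table median of 3.12, where a signal cannot be told from background because the table has no detection calls. The size of the fold is therefore uncertain, and with 4 added to every value before log2 it was 1.61 (adjusted p = 0.252, limma). It was 1.62 without Arid1a d/d replicate 2 (adjusted p = 0.0804, limma) and 3.38 without Arid1a d/d replicate 3 (adjusted p = 0.0188, limma).

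The other probe sets of Muc4 did not give the same picture. On 1427398_at the intensities were 2.55, 9.81 and 2.31 on the Arid1a d/d arrays, against 2.34, 2.10 and 2.64 on the Arid1a f/f arrays. Arid1a d/d replicate 2 alone stood out, and the genotypes overlapped (log2 fold change 0.72, adjusted p = 0.488, limma). On 1432119_at every Arid1a d/d array, at 1.85, 1.86 and 1.94, lay above the Arid1a f/f arrays, at 1.67, 1.68 and 1.60, but all of these values were dim (log2 fold change 0.19, adjusted p = 0.311, limma). The log2 fold change of the brightest probe set exceeded that of 1427398_at by 1.82 (95% interval 0.36 to 3.27, two-sided exact permutation p = 0.1), where 0.1 is the smallest p that 3 arrays against 3 allow. The brightest probe set was chosen by its mean over all arrays. In Arid1a f/f mice its mean (2.44) was close to that of 1427398_at (2.36), so the choice rested largely on the Arid1a d/d values. A larger fold change was thereby favoured, and the interval is no independent evidence that these probe sets differ. The suffix x_at marks a probe set whose probes may also match other transcripts.

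Muc20, which binds MET in human cells, had intensities of 6.71, 13.8 and 5.27 on the Arid1a d/d arrays and of 3.44, 4.69 and 3.80 on the Arid1a f/f arrays (probe set 1451786_at). The genotypes did not overlap, although Arid1a d/d replicate 3 and Arid1a f/f replicate 2 lay close together. The mean was 8.60 ± 4.58 in Arid1a d/d mice and 3.98 ± 0.643 in Arid1a f/f mice (SD, n = 3 each). The log2 fold change was 1.00 (standard error 0.31, 95% interval 0.30 to 1.70, adjusted p = 0.116, limma), and 0.59 without Arid1a d/d replicate 2 (adjusted p = 0.129, limma). The Arid1a f/f values lay not far above the table median of 3.12, so the size of this fold is uncertain too. With 4 added to every value before log2 it was 0.60 (adjusted p = 0.253, limma), and with 16 added 0.29 (adjusted p = 0.369, limma). The second probe set, 1442960_at, had 2.43, 2.60 and 2.25 in Arid1a d/d mice, against 2.43, 2.27 and 2.56 in Arid1a f/f mice, so that the genotypes overlapped (adjusted p = 0.994, limma). The log2 fold change of the second probe set was 0.0032 (95% interval -0.23 to 0.24). All of its values were below the table median, where a signal cannot be told from background. It is therefore not read as a change of the transcript or as the absence of one.

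Muc13, a mucin of intestinal epithelium, and Muc15 were dim on every array. On 1419387_s_at, Muc13 had 2.51, 2.69 and 2.96 in Arid1a d/d mice and 2.73, 2.48 and 2.60 in Arid1a f/f mice (log2 fold change 0.06, adjusted p = 0.833, limma). On 1419386_at it had 1.87, 1.95 and 1.69 in Arid1a d/d mice and 2.09, 1.74 and 2.10 in Arid1a f/f mice (log2 fold change -0.10, adjusted p = 0.722, limma). Muc15 had 1.84, 2.00 and 2.23 in Arid1a d/d mice and 1.66, 1.98 and 1.72 in Arid1a f/f mice (log2 fold change 0.18, adjusted p = 0.485, limma). The genotypes overlapped on each of these 3 probe sets. In all, 5 of the 9 mucin probe sets were below the table median on every array, and the same 5 were within the range of genes absent from a female genome: 13 probe sets of 6 Y-linked genes spanned 1.49 to 3.43. At these signals neither presence nor a difference of these transcripts was detectable.

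**Figure D2:**
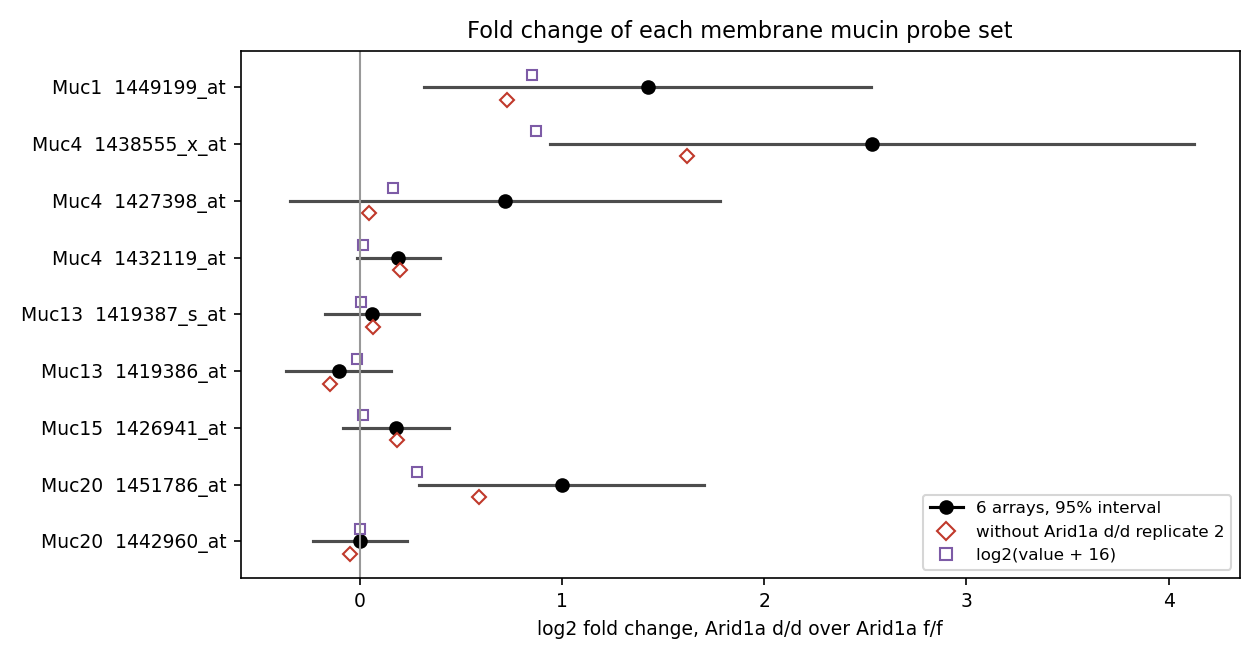
Log2 fold change, Arid1a d/d over Arid1a f/f (horizontal), of each membrane mucin probe set (rows), from 3 arrays per genotype. Black points with lines give the value and its 95% interval over 6 arrays, open red diamonds the value without Arid1a d/d replicate 2 and open purple squares the value after adding 16 to every intensity; Muc1 moves to 0.73 and Muc4 (1438555_x_at) to 1.62 without that array, and Muc20 (1451786_at) to 0.59.

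Whether the members differed from each other was tested on the differences between their brightest probe sets, for all 10 pairs. For Muc4 that choice rested largely on the Arid1a d/d values, so the pairs with Muc4 may overstate its fold change. Muc4 exceeded Muc20 by 1.54 on the log2 scale (95% interval -0.22 to 3.29), and Muc1 exceeded Muc20 by 0.43 (95% interval -0.64 to 1.49). Muc1 was lower than Muc4 in fold change by 1.11 (difference -1.11, 95% interval -2.64 to 0.42). The pairs with Muc13 or Muc15 rest on dim signals. The lowest adjusted p of the 10 pairs was 0.2 (two-sided exact permutation test), and the intervals leave room for equal and for clearly unequal fold changes. Over single genes, the exact permutation test gave p = 0.1, the smallest it can give, for Muc1, Muc4 and Muc20, p = 0.6 for Muc13 and p = 0.2 for Muc15 (two-sided, 20 arrangements).

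Muc1, Muc4 and Muc20 varied together over the 6 arrays. Pearson's r of the log2 intensities was 0.93 for Muc1 and Muc4, 0.94 for Muc1 and Muc20 and 0.98 for Muc4 and Muc20. These points share the genotype and include Arid1a d/d replicate 2. Without that array r was 0.75, 0.70 and 0.91, and the deviations from the genotype means had r of 0.86, 0.88 and 0.94. Muc13 and Muc15 followed none of them as closely, with r from 0.0038 to 0.47.

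The same array stood out among the general epithelial markers. Of 14 epithelial markers measured, 11 were highest on Arid1a d/d replicate 2, where 17.9% of all probe sets had their highest value. Their summed intensity was 1299, 2602 and 1753 on the Arid1a d/d arrays, against 1309, 1298 and 1222 on the Arid1a f/f arrays. Elf3, an epithelial transcription factor, had 18.0, 94.1 and 19.1 in Arid1a d/d mice, against 11.2, 10.03 and 7.86 in Arid1a f/f mice. Krt7, a keratin of simple epithelia, had 31.3, 124.6 and 31.2 in Arid1a d/d mice, against 15.8, 26.9 and 20.04 in Arid1a f/f mice. On both, as on Muc1, Arid1a d/d replicate 2 was the highest array and the genotypes did not overlap, and neither passed the test (adjusted p = 0.122 and 0.195, limma). The other 3 markers were not highest on that array and had lower means in Arid1a d/d mice. Cldn3, a tight junction gene, had 173, 205 and 303 in Arid1a d/d mice, against 349, 243 and 285 in Arid1a f/f mice (log2 fold change -0.39, adjusted p = 0.385, limma). Ehf, another epithelial transcription factor, had 27.0, 15.3 and 28.3 in Arid1a d/d mice, against 24.98, 26.2 and 25.1 in Arid1a f/f mice (log2 fold change -0.16, adjusted p = 0.770, limma), so that Arid1a d/d replicate 2 was its lowest array. For Cldn4, also of tight junctions, the log2 fold change was -0.16 (adjusted p = 0.680, limma). At an unadjusted p under 0.05 (limma), 9 of the 14 markers were higher and 0 lower (9.27% and 9.23% of all probe sets). The genotypes did not overlap on 6, all higher in Arid1a d/d mice (13.4% of all genes). Cdh1, which encodes E-cadherin, was the 1 marker that passed as higher after adjustment (171, 240 and 225 in Arid1a d/d mice, against 110, 103 and 120 in Arid1a f/f mice, log2 fold change 0.92, adjusted p = 0.0119, limma). Of the 6 fits with 1 array removed, 5 called it, the exception being the one lacking Arid1a f/f replicate 2 (0.87). The number of markers called higher was 0 in that fit, 4 when Arid1a d/d replicate 1 was left out and 2 when Arid1a d/d replicate 2 was. The median log2 fold change of the 14 markers was 0.68, against -0.018 over all genes.

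**Figure D3:**
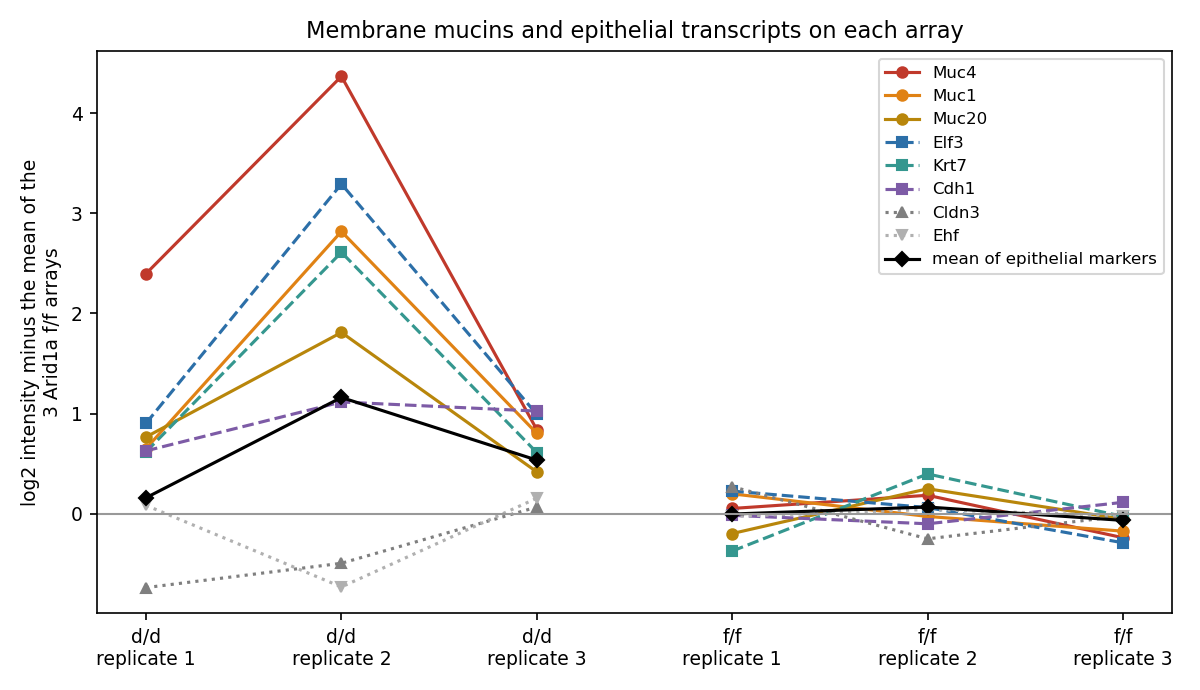
Log2 intensity minus the mean of the 3 Arid1a f/f arrays (vertical) on each Arid1a d/d array (left) and Arid1a f/f array (right), for Muc1, Muc4 and Muc20 (solid lines), for Elf3, Krt7 and Cdh1 (dashed lines), for Cldn3 and Ehf (dotted lines) and for the mean of 14 epithelial markers (black). Lines join arrays of 1 genotype for legibility only; Arid1a d/d replicate 2 is at 2.82 for Muc1, 4.37 for Muc4, 1.81 for Muc20, 1.16 for the marker mean, -0.49 for Cldn3 and -0.73 for Ehf.

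The mucins were also set against the epithelial marker mean of the same array. Relative to the Arid1a f/f mean, Muc1 minus the marker mean was 0.49, 1.66 and 0.27 on the Arid1a d/d arrays and 0.20, -0.094 and -0.11 on the Arid1a f/f arrays. The genotypes did not overlap, with a difference of 0.80 (95% interval -0.42 to 2.03, two-sided exact permutation p = 0.1), or 0.38 without Arid1a d/d replicate 2. For Muc4 the corresponding values were 2.24, 3.21 and 0.30 in Arid1a d/d mice and 0.056, 0.12 and -0.17 in Arid1a f/f mice, a difference of 1.92 (95% interval -0.47 to 4.30, two-sided exact permutation p = 0.1). Without Arid1a d/d replicate 2 the difference for Muc4 was 1.27. Its Arid1a f/f intensities were all below the table median, so the size of this difference is uncertain. Muc20 overlapped on this scale, with 0.61, 0.65 and -0.12 in Arid1a d/d mice and -0.19, 0.18 and 0.012 in Arid1a f/f mice (difference 0.38, 95% interval -0.37 to 1.13, two-sided exact permutation p = 0.3). Its difference was 0.24 without Arid1a d/d replicate 2. The dim Muc13 (-0.56, 95% interval -1.36 to 0.24) and Muc15 (-0.44, 95% interval -1.23 to 0.35) were below 0 on this scale (two-sided exact permutation p = 0.1 for each). Their own signals were dim and nearly flat, so these values mostly return the subtracted marker mean, which differed by 0.62 between the genotypes. They do not measure Muc13 or Muc15 relative to the epithelium. None of the 5 intervals excluded 0.

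Other cell types that the tissue could hold were measured beside the mucins. Of 11 squamous epithelium markers, 0 passed in either direction in limma, 0 also at an unadjusted p under 0.05, and 7 were below the table median on every array, with summed intensities of 27.8 to 29.4 in Arid1a d/d mice and 27.9 to 29.1 in Arid1a f/f mice. Of 8 mesothelial markers, 0 passed in either direction (1 higher and 1 lower at an unadjusted p under 0.05), and their sum was 183.8, 352.8 and 236.1 in Arid1a d/d mice, against 175.8, 214.2 and 147.7 in Arid1a f/f mice. Krt19, which is also an epithelial marker, gave 101, 285 and 139 of the Arid1a d/d sums and 92.3, 115 and 59.5 of the Arid1a f/f sums. Of 8 ciliated and oviduct markers, Ovgp1 was lower (log2 fold change -2.65, adjusted p = 0.0237, limma) and the other 7 did not pass. It was called in 3 of the 6 fits with 1 array removed (-3.13 to -2.04), not without Arid1a d/d replicate 1, Arid1a d/d replicate 2 or Arid1a f/f replicate 3. Of 12 stromal fibroblast, 12 smooth muscle and 11 leukocyte markers, 0 were higher and 2, 1 and 2 were lower (limma), with 6, 4 and 4 lower at an unadjusted p under 0.05. Each list had 0 to 2 lower when 1 array was removed, the 0 coming without Arid1a d/d replicate 2 or Arid1a f/f replicate 2 for stromal fibroblasts, without any single array but Arid1a d/d replicate 1 for smooth muscle, and without any Arid1a f/f array for leukocytes. The part of these cells in the mucin values was not tested.

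The luminal surface also has markers of its own. Of 7 measured luminal epithelium markers, 1 was higher and 1 lower (2 and 2 at an unadjusted p under 0.05, limma). Unlike the general epithelial markers, 1 of these 7 was highest on Arid1a d/d replicate 2. Their summed intensity was 766, 702 and 591 on the Arid1a d/d arrays, against 685, 602 and 549 on the Arid1a f/f arrays. Wnt7a, a secreted ligand of the luminal epithelium, had 13.6, 22.6 and 11.6 in Arid1a d/d mice and 7.02, 8.36 and 6.52 in Arid1a f/f mice (log2 fold change 1.07, adjusted p = 0.0339, limma). Of the 6 fits with 1 array removed, 2 called it, and its value ranged from 0.79 to 1.27. Lpar3, the lysophosphatidic acid receptor that positions embryos, was lower, at 6.48, 4.77 and 11.0 in Arid1a d/d mice and 27.9, 22.4 and 21.5 in Arid1a f/f mice (log2 fold change -1.77, adjusted p = 0.0114, limma), and was not called when Arid1a f/f replicate 2 was removed (-1.81). Of 9 gland markers, 3 were lower and 0 higher (7 and 1 at an unadjusted p under 0.05). Without Arid1a f/f replicate 1, 5 gland markers were lower. Arid1a d/d replicate 2 was the highest array for 2 of the 9.

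For each member, the 3 genes with the most similar pattern over the 6 arrays were taken among 1741 genes above the table median whose values spanned at least 1 on the log2 scale. For Muc1 they were Elf3 (r = 0.998), Galnt12 (r = 0.995) and Krtcap3 (r = 0.994), and without Arid1a d/d replicate 2 the same genes had r of 0.992, 0.974 and 0.982. For Muc4 they were Hmgcll1, Lcn2 and Gjb2 (r = 0.991, 0.987 and 0.987), and for Muc20 Lrig1, Klf4 and Stc2 (r = 0.991, 0.991 and 0.990). Lcn2, which encodes the secreted protein lipocalin, had 51.2, 623 and 4.26 in Arid1a d/d mice and 4.39, 3.70 and 2.84 in Arid1a f/f mice, so that Arid1a d/d replicate 3 lay within the Arid1a f/f range. Gjb2, a gap junction gene, had 19.3, 125 and 9.96 in Arid1a d/d mice and 2.90, 3.15 and 2.98 in Arid1a f/f mice. It was the 1 gene of these 9 that passed the test (log2 fold change 3.26, adjusted p = 0.0443, limma), and 2 of the 6 fits with 1 array removed called it. These genes were picked for a pattern like that of mucins with higher values in Arid1a d/d mice, so this pass is no independent evidence. The Arid1a f/f values of Gjb2 lay around the table median of 3.12, so the size of its fold is uncertain. For the dim members the nearest patterns were Slc51a, H1f10 and Atp2c2 (Muc13) and Tox3, Efhd1 and Tstd2 (Muc15), with r from 0.93 to 0.97. All these r describe 6 points that share 2 genotypes, among many genes compared.

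The rest of the mucin family gave no transcript that passed. Of 7 other mucin genes measured, 0 were higher and 0 lower in limma, also at an unadjusted p under 0.05, 5 were below the table median on every array, and the median log2 fold change was 0.055. Over all genes, 3.37% passed as higher and 4.06% as lower. Muc5ac, a gel-forming mucin, had 3.32, 3.31 and 3.91 in Arid1a d/d mice and 4.31, 3.81 and 3.48 in Arid1a f/f mice. Mucl2 had 2.17, 2.04 and 1.77 in Arid1a d/d mice and 1.80, 1.69 and 1.84 in Arid1a f/f mice. Both overlapped between the genotypes.

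Mucins are completed by enzymes that start, extend and cap their O-glycans. Of 18 measured GalNAc transferases, which attach the first sugar, 0 were higher and 3 lower, and the median log2 fold change was -0.011. At an unadjusted p under 0.05, 3 were higher and 4 lower. The lower genes past the adjusted test were Galnt15 (8.08, 7.46 and 7.46 in Arid1a d/d mice, against 12.8, 36.4 and 22.6 in Arid1a f/f mice, log2 fold change -1.52, adjusted p = 0.0304), Galnt11 (-0.59, adjusted p = 0.0487) and Galnt16 (-0.56, adjusted p = 0.0498). With 1 array removed at a time, Galnt15 was called in 1 of 6 limma fits (-1.90 to -1.15) and Galnt11 (-0.66 to -0.44) and Galnt16 (-0.66 to -0.45) in 0 of 6. In the opposite direction, Galnt12 had 8.18, 33.8 and 9.20 in Arid1a d/d mice and 5.03, 5.20 and 4.30 in Arid1a f/f mice (log2 fold change 1.499, adjusted p = 0.110, limma). Galnt3, singled out after its values were seen, had 5.09, 13.8 and 5.46 in Arid1a d/d mice and 2.89, 3.40 and 2.89 in Arid1a f/f mice (log2 fold change 1.25, adjusted p = 0.0716, limma). On Galnt12 and Galnt3, as on Muc1, the genotypes did not overlap and Arid1a d/d replicate 2 was the highest array.

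Of 27 measured enzymes of O-glycan extension and capping, 0 were higher and 2 lower (1 and 6 at an unadjusted p under 0.05), and the median log2 fold change was -0.12. St3gal6, a sialyltransferase, fell to 16.3, 13.6 and 17.2 in Arid1a d/d mice, against 26.6, 32.0 and 34.5 in Arid1a f/f mice (log2 fold change -0.98, adjusted p = 0.00824, limma). All 6 fits with 1 array removed called it. St6galnac3, another sialyltransferase, had -0.49 (adjusted p = 0.0428, limma) at intensities of at most 4.42, and 1 of those 6 fits called it (-0.57 to -0.44).

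Proteases release the outer part of membrane mucins, and in human uterine epithelial cells ADAM17 and MMP14 have this role for MUC1. Of 12 measured sheddases and their regulators, 0 were higher and 2 lower (1 and 4 at an unadjusted p under 0.05), and Adam17 (38.5 in Arid1a d/d mice and 41.0 in Arid1a f/f mice) and Mmp14 (229 in Arid1a d/d mice and 247 in Arid1a f/f mice) did not pass. Timp1, an inhibitor of metalloproteases, fell to 16.8, 15.4 and 15.7 in Arid1a d/d mice, against 29.2, 26.7 and 29.7 in Arid1a f/f mice (log2 fold change -0.83, adjusted p = 0.00437, limma), and all 6 fits with 1 array removed called it. Adam15 had -0.52 (adjusted p = 0.0368, limma) and was called in 0 of those fits (-0.57 to -0.44).

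Of 16 measured partners that bind mucin tails or ectodomains, 2 were higher and 1 lower. Erbb3, a receptor of the family that MUC4 binds through ERBB2 in rat and human cells, had 26.6, 47.0 and 37.2 in Arid1a d/d mice and 17.7, 18.6 and 17.2 in Arid1a f/f mice (log2 fold change 1.01, adjusted p = 0.0211, limma). Ezr, which encodes the membrane to actin linker ezrin, had 99.1, 133 and 122 in Arid1a d/d mice and 75.2, 86.0 and 62.6 in Arid1a f/f mice (log2 fold change 0.67, adjusted p = 0.0446, limma). With 1 array removed at a time, Erbb3 was called in 2 (0.82 to 1.23) and Ezr in 1 (0.54 to 0.79) of 6 fits. Icam1, which binds the outer part of human MUC1, fell to 7.76, 6.96 and 8.75 in Arid1a d/d mice, against 15.3, 20.8 and 20.3 in Arid1a f/f mice (log2 fold change -1.26, adjusted p = 0.00421, limma), and was called in all 6 fits. Of 12 endothelial markers, a cell type that expresses Icam1, 11 were lower in the same RNA, and 5 (without Arid1a f/f replicate 3) to 8 (without Arid1a f/f replicate 1) when 1 array was removed, with summed intensities of 304, 251 and 299 in Arid1a d/d mice and of 566, 588 and 581 in Arid1a f/f mice. The part of these cells in the Icam1 value was not tested. Met, the partner of MUC20, and Erbb2 did not pass.

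**Figure D4:**
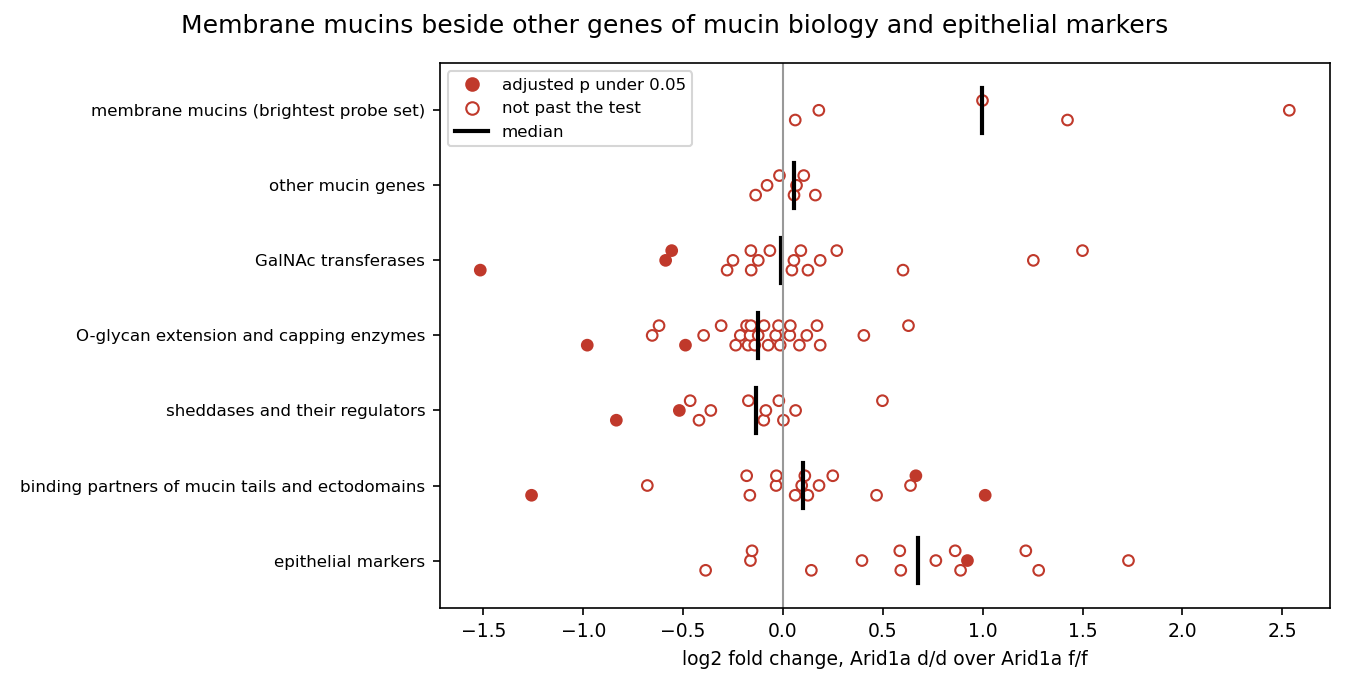
Log2 fold change, Arid1a d/d over Arid1a f/f (horizontal), of the 5 membrane mucins and of each measured gene of 6 lists (rows), each gene by its brightest probe set and from 3 arrays per genotype. Filled circles passed limma at an adjusted p under 0.05, open circles did not, and black bars are medians, which lie at -0.12 for O-glycan extension and capping enzymes and at 0.68 for epithelial markers.

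The plot by list places the mucins beside these enzymes and partners. Muc1, Muc4 and Muc20 are open circles like most points. Muc1 (1.42) and Muc20 (1.00) lie within the range of the epithelial markers, whose highest is Elf3 at 1.73, and Muc4 (2.53) lies beyond it.

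Muc1 is known as an estrogen-responsive gene of the mouse uterus, so it was set beside others of that kind. Of 12 other measured estrogen-responsive epithelial genes, 5 were higher and 1 lower, and the median log2 fold change was 2.08. The list was drawn up with earlier results of these samples known and is no independent evidence of its direction. Ltf, which encodes lactoferrin, had 157, 111 and 66.2 in Arid1a d/d mice and 15.3, 4.08 and 6.82 in Arid1a f/f mice (log2 fold change 3.80, adjusted p = 0.00491, limma). Clca1, a secreted protein of mucus-producing cells, had 97.2, 110 and 27.6 in Arid1a d/d mice and 2.28, 2.03 and 2.19 in Arid1a f/f mice (log2 fold change 4.94, adjusted p = 0.00183, limma), against values below the table median. Both were called in all 6 fits with 1 array removed. Arid1a d/d replicate 2 was not the highest array for Ltf and was little above replicate 1 for Clca1, unlike for Muc1. Over the list, 4 of the 12 genes were highest on that array. Padi1 (log2 fold change 2.83, adjusted p = 0.00972, limma) and Ramp3 (3.25, adjusted p = 0.00287, limma) were also higher, with a call in all 6 fits. Their lowest values in those fits, 2.28 and 2.92, came without Arid1a d/d replicate 2.

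Of 13 measured steroid receptors and coregulators, 1 was higher and 1 lower. Greb1, a cofactor of the estrogen receptor, had 36.4, 24.0 and 22.2 in Arid1a d/d mice and 9.32, 10.4 and 10.4 in Arid1a f/f mice (log2 fold change 1.42, adjusted p = 0.00556, limma). Esr1, the estrogen receptor, had -0.45 (adjusted p = 0.0441, limma) and was called in 0 of the 6 fits with 1 array removed (-0.51 to -0.39). Pgr, the progesterone receptor, had a mean of 294 in Arid1a d/d mice and 244 in Arid1a f/f mice and did not pass. Of 14 measured cytokine and STAT pathway genes, 0 were higher and 2 lower (1 and 6 at an unadjusted p under 0.05). Stat3 fell to 58.5, 63.9 and 66.4 in Arid1a d/d mice, against 102, 122 and 111 in Arid1a f/f mice (log2 fold change -0.83, adjusted p = 0.00648, limma), with a call in all 6 of those fits, as had Greb1. Socs3, its feedback inhibitor, had -0.91 (adjusted p = 0.0289, limma) and a call in 1 of those fits (-1.13 to -0.78).

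Muc4, Muc20 and Muc13 lie on chromosome 16. The gene spans of Muc4, on the plus strand, and Muc20, on the minus strand, share 4973 bases, and Muc13 starts 996602 bases beyond them. The counting of one gene against the other cannot be checked here, because where the probes lie within these spans was not analysed. The 5 nearest measured genes on each side of every member gave 40 genes, of which 2 were higher and 1 lower, and their median log2 fold change was -0.014. Beside Muc4 and Muc20, Tfrc, the transferrin receptor, had 83.2, 172 and 76.7 in Arid1a d/d mice and 39.8, 28.3 and 27.9 in Arid1a f/f mice (log2 fold change 1.71, adjusted p = 0.0160, limma). Removing Arid1a f/f replicate 2 (1.63) or replicate 3 (1.62) ended its call. Umps, an enzyme of pyrimidine synthesis beside Muc13, was higher (log2 fold change 0.81, adjusted p = 0.00635, limma), and Efna1, an ephrin beside Muc1, was lower (log2 fold change -0.70, adjusted p = 0.0121, limma). Umps was called in all 6 fits with 1 array removed, and Efna1 in all but the one lacking Arid1a f/f replicate 2 (-0.64). The genes directly next to Muc1, Thbs3 and Trim46, had log2 fold changes of -0.092 and -0.016.

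**Figure D5:**
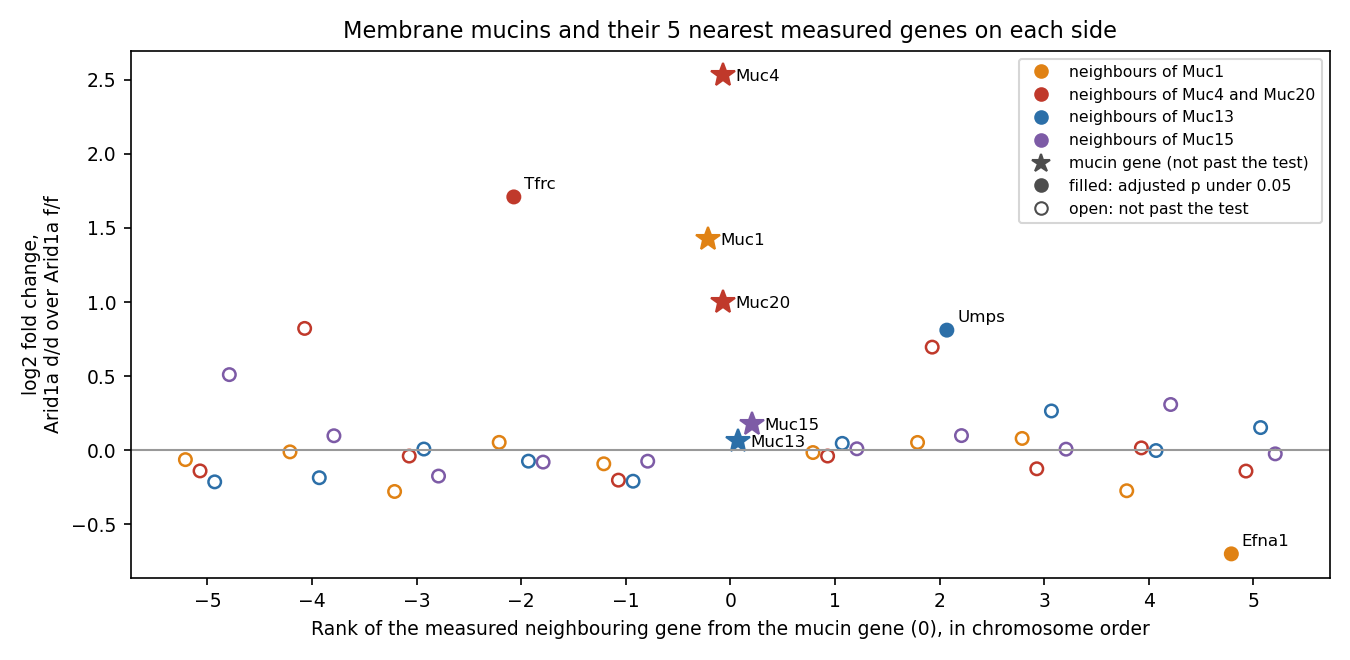
Log2 fold change, Arid1a d/d over Arid1a f/f (vertical), of the membrane mucins (stars at rank 0) and of the 5 nearest measured genes on each side (circles), by rank along the chromosome (horizontal). Filled circles passed limma at an adjusted p under 0.05; Tfrc at 1.71 is the highest neighbour, Efna1 at -0.70 the lowest, and the median of all neighbours is -0.014.

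The series as a whole bears on these values as follows. Arid1a itself was lower in Arid1a d/d mice, at a mean of 54.0, than in Arid1a f/f mice, at 91.4 (log2 fold change -0.76, adjusted p = 0.0120, limma). The position of its probes within the gene was not analysed, so this value does not check the deletion. The array medians were 3.05 to 3.17 in Arid1a d/d mice and 3.10 to 3.15 in Arid1a f/f mice, and each array correlated with the others of its genotype at a mean r of 0.99. Of 10 uterus markers, 1 was higher and 1 lower (2 and 2 at an unadjusted p under 0.05, limma). Their log2 fold changes ran from -0.53 (Hoxa11) to 1.07 (Wnt7a), with a median of 0.050. The uterine gene Hoxa10 had a mean of 218 in Arid1a d/d mice and 221 in Arid1a f/f mice, and Esr1 and Pgr, both uterine, were bright on every array.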

How the data were processed

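RNA from 3 uterus samples of Arid1a d/d and 3 of Arid1a f/f genotype was measured on 1 array each. RMA followed by global scaling is what the authors state for the intensity they deposited (no version given in the submitters' processing notes). The mean of each array without the highest and lowest 2% of values was 16.4 to 17.2, well below the trimmed mean target that the methods state, so the unit of the intensities is relative. Values run from 1.29 to 4479 on a linear scale, and their log2 was used with no filter. Names came from GEO's platform annotation (34945 with 1 gene, 932 with several and not named, 9160 unnamed here), and symbols were matched to RefSeq by Entrez ID, which changed 0. The files name no genome build, so positions and start regions are those of RefSeq's GRCm38.p6 table.

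The test was limma, version 3.58.1, in R 4.3.3 (lmFit, eBayes, two-sided, Benjamini-Hochberg over 45037 probe sets). The fit was tested on simulated data. A gene was represented by its probe set with the highest mean log2 value. The rule for naming took all member probe sets, up to 4 neighbours past the test and 3 similar genes per member. In each list it took up to 4 genes past the test or else the 2 largest changes. Genes past the test in the gland, stromal fibroblast, smooth muscle, endothelial and leukocyte lists were counted in the text and not named. Of the mesothelial and blood cell lists, not every gene that met the rule was named. Elf3, Krt7, Cldn3, Cldn4, Ehf, Galnt3, Galnt12, Adam17, Mmp14, Met, Erbb2, Pgr, Hoxa10, Hoxa11, Thbs3 and Trim46 were named beside those of the rule, with values in view. The members, lists and rules were chosen with earlier results of these data known, and the Y-linked genes after the data were seen. The number of arrays limits the precision.

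The alternatives were the replicate block, quantile normalization, median centring, centring on epithelial markers, 4 or 16 added before log2, removal of dim probe sets, trended and robust eBayes, array weights, the methods' t-test, a looser p and a fold minimum as thresholds, other choices of probe set for a gene, and removal of each array.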

Additional observations from a re-analysis of the deposited data

How the results depend on the processing

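The genotypes did not overlap on the brightest probe sets of Muc1, Muc4 and Muc20, which fixes their direction under most alternatives, so direction is no sign of stability. Leaving out 1 array at a time, the log2 fold change was 0.73 to 1.81 for Muc1, 1.62 to 3.38 for Muc4, 0.59 to 1.29 for Muc20, -0.0016 to 0.12 for Muc13 and 0.11 to 0.26 for Muc15. Muc1 passed without Arid1a d/d replicate 2 (0.73) and Muc4 without Arid1a d/d replicate 3 (3.38), so 0 to 1 mucin probe sets were higher in these fits, and 241 to 941 of all probe sets were higher and 337 to 878 lower. At an adjusted p under 0.10, Muc4 (2.53) was the 1 mucin probe set that passed, with 1925 probe sets higher and 1814 lower in all. After adding 16 to every value 512 were higher and 478 lower, and the methods' t-test called 0 and 0. With arrays centred on the epithelial markers, limma gave every probe set 1 common standard error, because each took on the deviations of the markers, so its calls (Muc4 at 1.92 as the 1 mucin probe set, 76 probe sets higher and 3015 lower) are not read as calls. That centring turned the direction of Muc13 (-0.56), Muc15 (-0.44), Muc4 on 1432119_at (-0.43), Muc20 on 1442960_at (-0.62), Mucl2 (-0.46), Krt4 (-0.40), Sprr3 (-0.44), Hba-a1 (-0.52), Krtcap3 (-0.13), H1f10 (-0.41), Atp2c2 (-0.20), Tstd2 (-0.095) and Epcam (-0.22), none of which had passed. The other reversals were smaller: Muc13 without probe sets of the suffixes s_at and x_at (-0.10), as the mean of its probe sets (-0.021) and without Arid1a d/d replicate 3 (-0.0016), H1f10 without Arid1a d/d replicate 3 (-0.018, range 0.36 at the highest when other arrays were left out), and Muc20 on 1442960_at without Arid1a d/d replicate 2 (-0.048) or Arid1a f/f replicate 2 (-0.042), its highest value being 0.056 without Arid1a d/d replicate 3. Without s_at and x_at probe sets Muc4 had 0.72. The cause of these shifts was not tested. With dim probe sets removed, the dim mucin probe sets had no value. Detection calls are missing from the table, which limits every value near the median of 3.12.

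The replicate numbers are shared by the genotypes in the labels. The deviations of same-numbered samples had correlations of -0.0036, 0.047 and 0.14, and those of differently numbered samples ran from -0.12 to 0.065. The value of 0.14, for the samples numbered 3, was the highest of all. Because all were weak, the numbers were not taken as pairs, and the labels do not settle whether they are. With the replicate number as a block, 2 mucin probe sets were higher, Muc4 (2.53, adjusted p = 0.0334, limma) and Muc20 (1.00, adjusted p = 0.0350, limma), while Muc1 had an adjusted p of 0.0986. In that fit 1126 of the 45037 probe sets were higher and 1039 lower.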
